A study of Mus musculus with 4 samples.

Results

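Retained introns were examined in RNAseq of mouse brain lacking PTBP2, a polypyrimidine tract binding protein of neurons. The deposited splicing tables describe exon trios, each a middle feature with its neighbors on both sides, and the middle feature of a trio of the class IR-IR is an intron that can stay in the mRNA. There were 1190 such trios among 228333. Where several trios share a middle feature, the best covered of them by junction reads summed over the 4 libraries was kept, which left 1184 introns among 192169 middle features. An intron was tested at a stage when both libraries of that stage had at least 20 reads on its 3 junctions, meaning the 2 exon-intron boundaries and the spliced junction between the exons. This held for 845 introns at E18 and for 845 at P1, 797 of them at both stages and 893 at either stage. The other 291 introns were tested at neither stage, and 92 of these had no junction read in any library.

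PolyA+ RNA was sequenced in paired reads of 100 nt. At embryonic day 18, it came from whole brain of Ptbp2-NesKO embryos, in which exon 4 of *Ptbp2* is floxed and Cre is driven by the nestin promoter in neural progenitors, and of wild-type littermates. Each E18 library was made from 2 brains. At postnatal day 1, RNA came from the cortex of 1 Ptbp2-EmxKO animal, in which Cre is expressed from the *Emx1* locus in the forebrain cells that give rise to projection neurons, and of 1 animal labelled wild type. The labels give a mixed C56Bl/6:129S2 background for all animals. The E18 libraries were unstranded and the P1 libraries were strand specific, so that stage, tissue, Cre line and library protocol cannot be told apart. With 1 library per group there was no replicate check. Tests on reads compare libraries and not genotypes.

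Skipping of exon 4 of *Ptbp2*, the targeted exon, was read first. Exon 4 was skipped in 100% of its reads in the NesKO library (257 of 257, 98.53 to 100% as 95% Wilson interval), whereas the wild-type E18 library had 0.2252% (1 of 444, 0.03977 to 1.265%). It was skipped in 82.62% of reads in the EmxKO library (79.89 to 85.06%) and in 31.54% in the P1 library labelled wild type (604 of 1915, 29.5 to 33.66%). Skipping of the targeted exon was therefore also frequent in the library labelled wild type at P1, and each P1 difference below is a difference from that library.

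Most introns are removed while the RNA is still being made, by the spliceosome, which recognizes a GU at the 5′ splice site and a pyrimidine-rich tract and an AG at the 3′ splice site. An intron that stays behind often holds the RNA in the nucleus or brings in a stop codon, so that retention can lower the amount of protein made from a gene. Polypyrimidine tract binding proteins bind CU-rich RNA near splice sites and are known both to repress exons and to affect the removal of some introns. PTBP2 is the form found in differentiating neurons.

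The splice sites of some of the introns whose reads differed between libraries are shown first, because they give the place where the reads were counted. Sequences are from GENCODE mouse release 21 transcripts that keep the intron as exon, and coordinates of the intron are in GRCm38. The 5′ splice site is given as 3 exon bases and 6 intron bases with the first 2 intron bases in capitals. The 3′ splice site is given as the last 27 intron bases and 3 exon bases with the last 2 intron bases in capitals.
Fam161b, chr12:84356478-84357527, minus strand, 5′ splice site: tagGTaagg
Fam161b 3′ splice site: gtccacacagaaccactctctccccAGgca
Rbm5, chr9:107756993-107760321, minus strand, 5′ splice site: cagGTgaga
Rbm5 3′ splice site: ataactaattgcttcttttttttacAGaaa
Clk1, chr1:58419734-58421082, minus strand, 5′ splice site: gggGTatga
Clk1 3′ splice site: tgaataataattattcctcttttttAGatg
Dzip1, chr14:118900043-118901500, minus strand, 5′ splice site: aagGTgagt
Dzip1 3′ splice site: gtttttaacttttatttctgccatcAGgga
Ngrn, chr7:80261424-80261820, plus strand, 5′ splice site: gagGTacct
Ngrn 3′ splice site: gcttttgccattggttctttcccccAGcgc
Zfp383, chr7:29912296-29912589, plus strand, 5′ splice site: tggGTaagg
Zfp383 3′ splice site: atgttccatgtcttttcttgtaagcAGgac
2310022A10Rik, chr7:27580692-27581350, plus strand, 5′ splice site: agaGTaagt
2310022A10Rik 3′ splice site: tcttctgttttctgtccctgtggcaAGgcc

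All of these introns begin with GT and end with AG. Of the 25 bases before the AG, C or T made up 17 in *Fam161b*, 18 in *Rbm5*, 17 in *Clk1*, 19 in *Dzip1*, 20 in *Ngrn*, 17 in *Zfp383* and 19 in 2310022A10Rik. Introns named below but not shown here had 15 in *Amer2*, *Chtop* and *Scg2* and 18 in *Map7d1* and *Rnf112*. They had 20 in *Maged1* and *Rpl10a* and 22 in *Retreg2*. Among the 779 introns of 50 nt or more that were tested at either stage and had a sequence, 740 (95%) began with GT and ended with AG and 28 began with GC and ended with AG.

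The libraries held between 47627638 and 82088398 spliced junction reads, each junction counted once, with the P1 libraries deeper than the E18 libraries. Introns tested at both stages had a median of 233 junction reads in the NesKO, 223 in wild-type E18 brain, 365 in the EmxKO and 353 in the P1 library labelled wild type. At these medians, 3 reads of the total correspond to 1.29%, 1.35%, 0.822% and 0.85%, a smallest visible share that, like the intervals, covers counting error only, since PCR copies are not independent molecules. All 7 neuronal markers had reads, with a sum between 2768 and 3260 junction reads per 1000000 in the 4 libraries. Red cell markers summed to 5634 in the NesKO and 4248 in wild-type brain at E18, against 797.2 and 793.6 at P1. The 3 liver markers, of which *Apoa1* had no reads and *Ttr* is also made by the choroid plexus, summed to 1202 and 686.3 at E18 and to 0.2077 and 0.03655 at P1. The part of these cells in the intron values was not tested. Fewer cells of a type and less RNA per cell cannot be told apart in such samples.

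The deposited inclusion ratio is SpliceTrap's estimate of the share of transcripts that keep the middle feature, here the intron, and is given in percent as the retention ratio. Over the 797 introns tested at both stages, its median was 42.1% in the NesKO (quartiles 14.8 and 86.1%), 40% in wild-type E18 brain (13.9 and 85.9%), 31.1% in the EmxKO (8.7 and 82.5%) and 31.9% in the P1 library labelled wild type (8.8 and 84.4%). The introns spanned the whole range. In all 4 libraries 141 introns were retained at 90% or more and 127 were under 10%. The 127 include introns listed at 0.0% in all 4 libraries, such as those of *Gas5*, whose reads are given below. Across introns, the ratios of a knockout and the library of its stage labelled wild type were close, with a Pearson r of 0.984 at E18 and 0.991 at P1, and 73.4% and 79.4% of the introns lay within 5 points of each other. Introns are not independent replicates. The libraries labelled wild type at the 2 stages were less alike (r = 0.932). Between them, 190 introns were at least 10 points higher at E18 and 64 at least 10 points higher at P1, a comparison in which stage, tissue and library protocol cannot be told apart.

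A second measure used only the junction reads, as the mean of the 2 boundary counts over its sum with the spliced reads. This junction-read ratio had medians of 49.1%, 46.7%, 41.7% and 42.6% in the same order of libraries, and it differed from the deposited ratio by 7.59 to 8.75 points on average over introns. Boundary reads of a retained intron and of pre-mRNA that was not yet spliced cannot be told apart. In each library 17 introns had no spliced read and yet a deposited ratio under 5%. *Gas5*, a noncoding RNA that hosts small nucleolar RNAs in its introns, has 4 of them. Its intron of 304 nt had 319 boundary reads in the NesKO and 317 in wild-type E18 brain, no spliced read, and a deposited ratio of 0.0% in all 4 libraries. For such introns the deposited ratio and the reads give opposite pictures if 0.0% is read as an estimate. The same 0.0% was listed in all 4 libraries for a feature of 2410015M20Rik with 608 boundary reads in the NesKO. It was also listed for a feature of *Acbd4* without a junction read in any library. The value therefore did not follow the reads, and whether it stands for a missing estimate was not tested. The 17 introns were kept in the medians, counts and differences, and the differences were 0.0 points for *Gas5*.

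The deposited ratio went down with intron length. Length classes were not compared by junction reads, whose ratio departed from the deposited one in some long introns, in either direction. Introns tested at both stages and shorter than 100 nt had a median ratio of 51.8% in the NesKO, 53.4% in wild-type E18 brain, 36.6% in the EmxKO and 37.8% in the P1 library labelled wild type. Those of 1000 nt or more had 24.3%, 20.6%, 21.1% and 20.2%. The classes in between lay between these values or close to them, and the quartiles of all classes overlapped widely. The place in the transcript separated introns as well. Introns in coding sequence had a median of 35.1%, 33.7%, 22.2% and 22.9%, and introns in 3′ UTRs had 72.2%, 69.8%, 71.0% and 70.1%. Introns in 5′ UTRs lay between these in the P1 libraries (54.6 and 52.1%) and near the 3′ UTR introns at E18 (69.5 and 64.2%). These are descriptions of the introns in each library and no test was made of them.

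**Figure D1:**
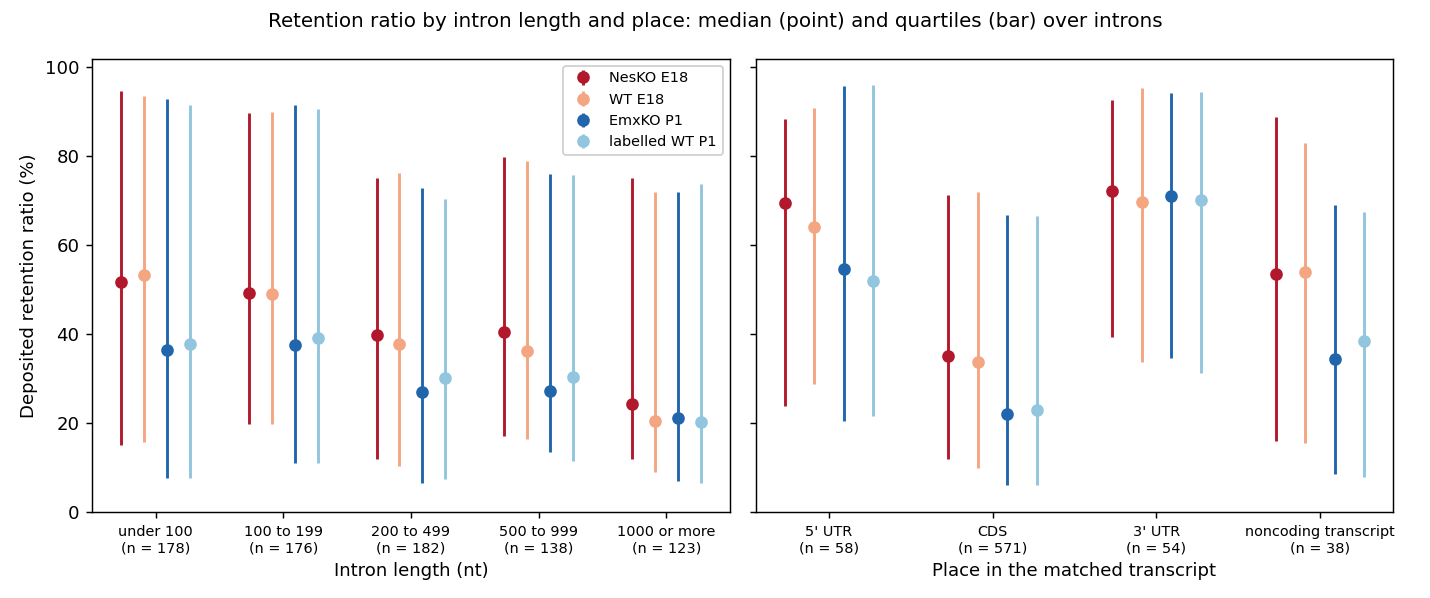
Deposited retention ratio in percent by intron length and by place in the matched transcript, for introns tested at both stages. Points are medians and bars run from the lower to the upper quartile over introns, with colors for the 4 libraries, and n is the number of introns. The median of the E18 wild type goes from 53.4% under 100 nt to 20.6% at 1000 nt or more, and 3′ UTR introns sit between 69.8% and 72.2% in all libraries.

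Coding introns that could be read through by the ribosome had higher median ratios than those with a stop codon in frame. Introns of coding sequence with a length divisible by 3 and no stop codon in frame, of which 81 were tested at both stages, had median ratios of 73.9%, 77.2%, 76.1% and 78.4%. The 388 introns that bring in a stop codon had 31.0%, 28.5%, 18.4% and 18.9%. The 50 introns without a stop codon and with a length not divisible by 3 had 48.6%, 53.7%, 48.5% and 47.0%. These classes were not matched for length. Last introns of the matched transcript, 171 in all, had 61.7%, 60.8%, 61.1% and 60.5%, against 35.2%, 33.7%, 22.2% and 22.7% for the other introns. The share of introns that differed by 10 points or more between the E18 libraries was 5.95% among those that could be read through and 12.8% among those with a stop codon. At P1 the shares were 4.82% and 6.63%. With Fisher's exact test in addition, 3 of 84 and 7 of 407 passed at E18, so no order of these classes is read from the shares.

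Some trios of this class do not hold an intron in the usual sense. Of the 1184 middle features, 127 were shorter than 50 nt, 88 were shorter than 4 nt and 10 had a length of 0. Of the 893 tested at either stage, 30 were under 50 nt. Only 4 of 18 such features with a sequence began with GT and ended with AG. The 3 below are shown because they make this visible, with the skipped bases in capitals between 3 exon bases on each side and with GRCm38 coordinates.
Oaz2, chr9:65686272-65686272, plus strand: tccTgat
Smarca2, chr19:26630721-26630738, plus strand: ctaGCCCTATATCTGGAGGAGgcc
Kndc1, chr7:139923779-139923779, plus strand: tccCccc
*Oaz2* encodes an antizyme, whose mRNA is read with a shift of the reading frame by the ribosome, and its middle feature is a single base. It had 3232 boundary reads in the NesKO and 2085 in wild-type E18 brain, no spliced read in any library, and a ratio of 99.9% throughout. The 18 nt of *Smarca2*, a chromatin remodeler, had between 83 and 589 boundary reads, no spliced read and a ratio of 99.9%. The single base of *Kndc1* was skipped in nearly all reads, with 90 spliced reads and no boundary read in the NesKO. Of the 1184 features, 106 matched the annotation as a stretch of 1 continuous exon, and those tested at both stages had a median ratio of 99.9% in every library.

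At E18, 57 introns were higher in the NesKO by 10 points or more and 39 were lower, of 845 tested (96, or 11.4%). Over all 133700 middle features tested, 1.27% were higher and 0.936% lower by as much. Most of those features are constitutive exons. Among alternative features other than introns, meaning cassette exons and alternative splice sites, 9.66% differed by 10 points or more in either direction. The median difference over introns was 0.20 points, against 0.00 over all features. Junction reads gave the same direction for 85 of the 96 introns, and 33 of the 96 had under 50 junction reads in either library. Those just inside and just outside the cutoff were in *Lss* (10 points) and *Celf2* (-9.9 points). Requiring in addition an adjusted p below 0.05 from Fisher's exact test (two-sided, Benjamini-Hochberg over all features of the stage) left 12 introns, 7 higher and 5 lower. That is 1.42% of the introns tested, against 0.154% of all features and 1.19% of the alternative features other than introns. By this test alone, 21 introns had an adjusted p below 0.05, and 111 an unadjusted one.

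The largest difference was in *Fam161b*, which encodes a relative of the ciliary protein FAM161A. Its intron of 1050 nt (chromosome 12, 85697428 to 85698477 in mm9, the build of the deposited tables) is intron 2 of 8 in the matched transcript and lies in coding sequence. The NesKO had 26 reads on the 5′ boundary, 20 on the 3′ boundary and 21 spliced reads. The E18 wild type had 2, 0 and 61. The deposited ratio was 45.4% in the NesKO and 1.7% in wild-type brain, and the junction-read ratio 52.3% (95% Wilson interval 37.9 to 66.2%) against 1.6% (0.3 to 8.6%). The intervals were apart, and the difference of 50.7 points had a Newcombe interval of 34.7 to 64.7 (adjusted p = 3.9e-07, Fisher's exact test). The density of reads on the intron, boundary reads included, was 57.52% of that on its flanking exons in the NesKO and 2.099% in wild-type brain.

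*Rbm5*, an RNA-binding protein that regulates splicing, had the next largest difference. Its intron of 3329 nt (chromosome 9, 107659324 to 107662652 in mm9) had 245 and 219 boundary reads with 39 spliced reads in the NesKO, and 225 and 145 with 140 spliced reads in wild-type brain. The deposited ratio was 77.4% against 41.6%, and the junction-read ratio 85.6% against 56.9% (difference 28.7 points, 21.6 to 35.2, adjusted p = 2.1e-11 by Fisher's exact test). Spliced reads were fewer in the NesKO than in wild-type brain, and boundary reads were not. *Dzip1*, needed for the assembly of primary cilia, had an intron of 1458 nt at 44.8% in the NesKO and 10.8% in wild-type brain, with 19 and 109 spliced reads (adjusted p = 0.0063, Fisher's exact test). Its boundary reads were uneven, 6 and 38 in the NesKO and 9 and 37 in wild-type brain. At P1 its measures went in opposite directions, with a deposited ratio of 34.0% in the EmxKO and 26.1% in the library labelled wild type and a junction-read ratio of 11.1% and 32.5% (adjusted p = 1 by the same exact test). *Chpf2*, an enzyme of chondroitin sulfate synthesis, had an intron of 647 nt at 52.9% in the NesKO and 32.1% in wild-type brain (adjusted p of 0.0065 by Fisher's exact test).

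The other 3 introns that rose at E18 changed less in the deposited ratio, though by junction reads *Clk1* rose by 32.0 points and *Sin3b* by 20.7. In *Sin3b*, a scaffold of histone deacetylase complexes, an intron of 1985 nt went from 20.6% in wild-type brain to 34.6% in the NesKO, with 362 and 189 spliced reads (adjusted p = 7e-07, Fisher's exact test). *Rnf112*, a brain RING finger protein, had an intron of 75 nt at 73.4% in the NesKO and 60.7% in wild-type brain (adjusted p = 0.0054, Fisher's exact test). *Clk1*, a kinase that phosphorylates SR splicing factors, had an intron of 1349 nt at 17.6% and 6.3%. The junction-read ratio of *Clk1* was far above the deposited one, namely 81.2% (73.8 to 86.8%) for NesKO brain and 49.1% (41.2 to 57.4%) for wild-type brain (adjusted p = 2.2e-05, Fisher's exact test). Reads per base on this intron were 19.21% and 8.451% of those on the flanking exons.

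The 5 introns that fell at E18 all stayed between 18.9% and 83.7% in both libraries. The largest was the last intron of 2310022A10Rik, of 659 nt, with a deposited ratio of 35.7% in the NesKO and 49.0% in wild-type brain and with 108 and 43 spliced reads. By junction reads it fell from 75.1% to 49.1% (adjusted p = 0.00018, Fisher's exact test). *Map7d1*, a microtubule-associated protein, had an intron of 96 nt at 36.7% and 48.7% (adjusted p = 0.0057, exact test). *Scg2*, which encodes secretogranin II of dense-core vesicles, had an intron of 120 nt in coding sequence at 61.7% and 73.4% (adjusted p = 0.0014, exact test). An intron of 428 nt matched to *Pcdha4*, a protocadherin whose last exons are shared by the alpha cluster, was at 72.8% and 83.7% (adjusted p = 6.5e-06, exact test). *Chtop*, a factor in mRNA export, had an intron of 1283 nt at 18.9% and 29.5% (adjusted p = 7.4e-05, exact test). These p are from Fisher's exact test with the adjustment given above.

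**Figure D2:**
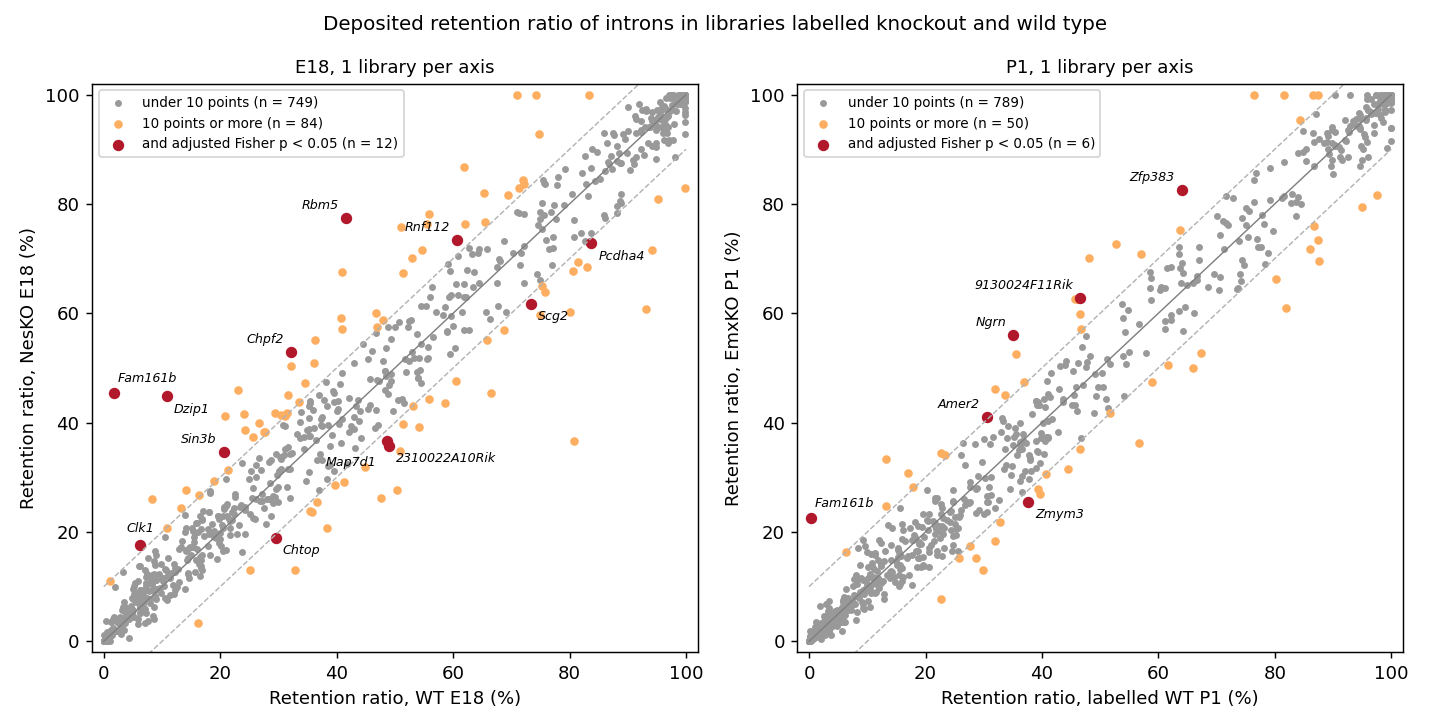
Deposited retention ratio in percent in the knockout library (vertical) against the library labelled wild type (horizontal) at E18 (left) and P1 (right), 1 point per intron tested. The solid line is equality and the dashed lines lie 10 points away. Named red points also have an adjusted p below 0.05 from Fisher's exact test, 12 at E18 and 6 at P1, and *Fam161b* lies near 1.7% and 0.3% on the horizontal axes.

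At P1, 29 introns were higher in the EmxKO by 10 points or more and 27 were lower than in the library labelled wild type, of 845 tested (56, or 6.63%). Of all 133120 features tested at P1, 0.904% were higher and 0.557% lower, and of the alternative features other than introns 7.64% differed. The median difference over introns was 0.00 points, as over all features. Junction reads gave the same direction for 51 of the 56 introns, and 19 had under 50 junction reads in either library. *Rbm7* (10 points) lay just inside the cutoff and *Kifc1* (9.8 points) just outside. With an adjusted p below 0.05 from Fisher's exact test in addition, 6 introns were left, 5 higher and 1 lower. That is 0.71% of the introns tested, against 0.206% of all features and 1.71% of the alternative features other than introns. By the test alone, 18 introns had an adjusted p below 0.05 and 86 an unadjusted one.

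*Fam161b* again had the largest difference. The EmxKO had 18 and 21 boundary reads and 47 spliced reads. The library labelled wild type had no boundary read and 77 spliced reads, which allows a share of up to 3.9%. The deposited ratio was 22.6% and 0.3%, and the junction-read ratio of the EmxKO was 29.3% (20.2 to 41.7%, adjusted p = 2.3e-05 by Fisher's exact test). Reads per base on the intron were 26.31% and 0.9456% of those on the flanking exons.

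Besides *Fam161b* and *Ngrn*, 3 introns rose at P1. In *Zfp383*, a zinc finger protein, an intron of 294 nt had a ratio of 82.5% in the EmxKO against 64.0% in the library labelled wild type, with 22 and 97 spliced reads (adjusted p = 0.018, Fisher's exact test). 9130024F11Rik, a noncoding RNA, had its only intron, of 2486 nt, at 62.8% and 46.6%, with 293 and 744 spliced reads (adjusted p = 1.7e-11, exact test). The P1 libraries keep the strand of the RNA. *Amer2*, a regulator of Wnt signaling, had an intron of 378 nt at 41.0% and 30.5% (adjusted p = 0.00068, exact test). *Zmym3*, a zinc finger protein of histone deacetylase complexes, was the intron that fell. Its 289 nt were at 25.5% in the EmxKO and 37.6% in the library labelled wild type, with 669 and 428 spliced reads (adjusted p = 5.2e-06, all from Fisher's exact test). Its boundary reads were uneven, 461 and 113 in the EmxKO and 591 and 70 in the library labelled wild type. In *Amer2* the E18 values went the same way, at 43.9% and 35.4%, without passing the test there.

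Of a short list of genes discussed for retention of their last intron under PTB proteins, only *Ngrn*, which encodes neugrin, had an intron among the IR-IR trios. This one has 397 nt (chromosome 7, 87406310 to 87406706 in mm9) and is intron 1 of 2 in the matched transcript, not the last intron. At P1 the EmxKO had 171 and 224 boundary reads and 222 spliced reads, and the library labelled wild type had 85, 153 and 301. The deposited ratio was 56.1% against 35.1%, and the junction-read ratio 47.1% (42.4 to 51.9%) against 28.3% (24.2 to 32.8%), so the intron rose by 21 and 18.7 points (adjusted p = 1.6e-05, Fisher's exact test). At E18 the measures disagreed. The deposited ratio was 43.6% in the NesKO and 58.6% in wild-type brain, a difference of -15.0 points, while the junction-read ratio was 55.9% (46.9 to 64.6%) and 51.0% (42.9 to 59.1%), a difference of 4.9 points (-7.2 to 16.7, adjusted p = 1 by Fisher's exact test). No direction is given for *Ngrn* at E18. The authors mention, without showing data, that the 3′-terminal intron of *Ngrn* was removed more efficiently in the Emx knockout. By the matched transcript that is another intron than the one measured here, whose ratio rose in the EmxKO at P1.

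Of the 797 introns tested at both stages, 12 differed by 10 points or more at both. In 7 the direction was the same, with *Fam161b*, *Golga1* and *Zfp26* higher in both knockouts and *Mapk15*, *Gp1bb*, *Arap3* and *Magt1* lower. In the other 5, among them *Ngrn*, it was opposite. The share of all features past 10 points at both stages was not computed, so no excess is read from these counts. *Fam161b* was the only intron with an adjusted p below 0.05 from Fisher's exact test at both stages and 10 points in both deposited differences. By junction reads, 3 introns passed this exact test and 10 points at both stages in the same direction, *Fam161b*, 2310022A10Rik and *Map7d1*, and *Clk1* passed in opposite directions. At P1 the intron of 2310022A10Rik was at 44.1% in the EmxKO by junction reads against 60.3% in the library labelled wild type (adjusted p of 0.0014, Fisher's exact test), with deposited ratios of 44.8% and 54.1%. That of *Map7d1* was at 39.9% against 51.2% by junction reads (adjusted p of 0.00036 by the same exact test), with deposited ratios of 42.7% and 51.4%. *Golga1*, which encodes a golgin of the trans-Golgi, had an intron of 462 nt at 50.9% and 36.1% at E18 and at 30.8% and 17.0% at P1. Its junction reads differed by 13.6 points (-2.8 to 30.6) at E18 and by 13.2 points (4.7 to 22.7) at P1, with adjusted p of 1 and 0.38 from Fisher's exact test. *Zfp26* had 59.1% and 40.8%, and 28.3% and 17.8%, with an adjusted p of 1 at both stages. *Gp1bb*, a platelet glycoprotein, had deposited ratios of 71.6% and 94.1% at E18 and 73.4% and 87.4% at P1, but its junction-read ratio was between 99.1% and 100.0% in all 4 libraries. *Magt1* was lower in the deposited ratio at both stages and 9.2 points higher by junction reads at E18.

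**Figure D3:**
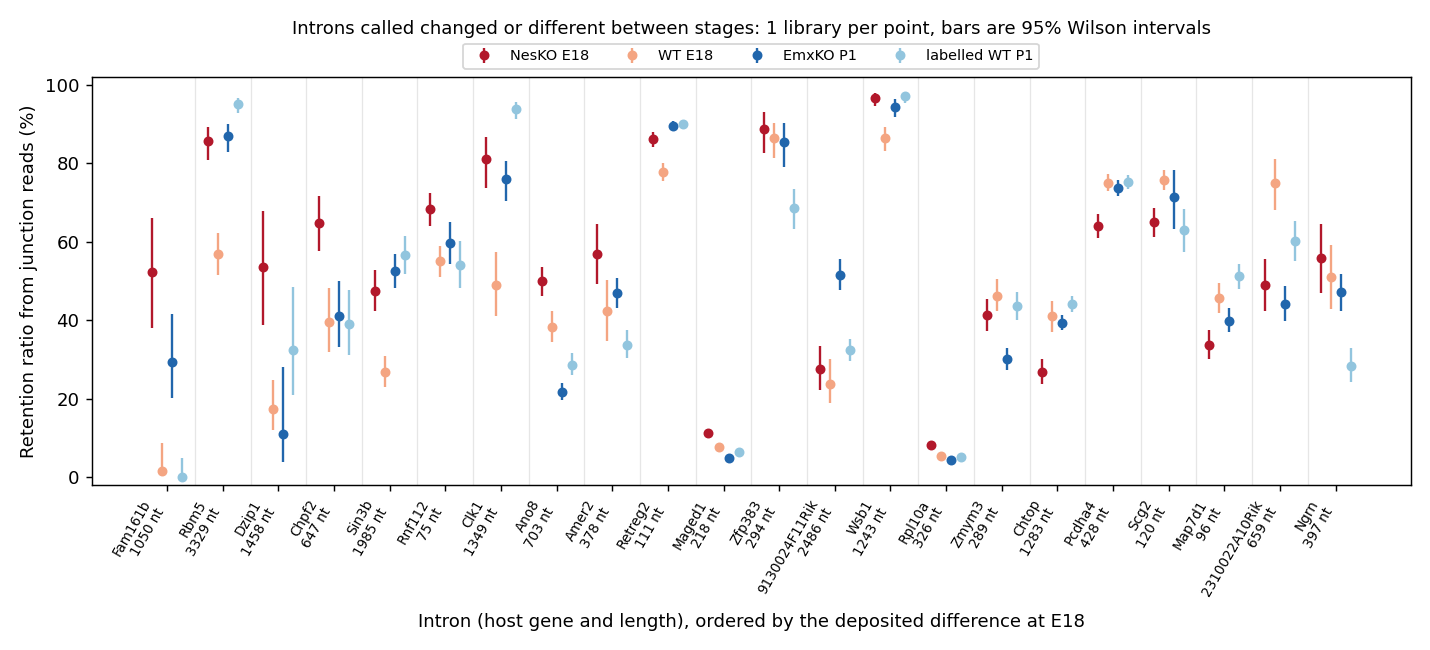
Retention ratio from junction reads in percent for introns that passed both criteria at a stage or differed between the stages, 4 libraries each, ordered by the deposited difference at E18. Points are single libraries and bars are 95% Wilson intervals for counting error. *Fam161b* is at 52.3% and 29.3% in the knockouts and at 1.6% and 0.0% in the libraries labelled wild type.

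Whether the knockout effect on an intron differed between the stages was tested directly on the log odds ratios. A Wald chi-square test of their difference with Benjamini-Hochberg adjustment over all 127080 features found 8 introns, in *Clk1*, *Rbm5*, *Maged1*, *Rpl10a*, *Ano8*, *Sin3b*, *Wsb1* and *Retreg2*. Of all features, 0.0818% passed. At an unadjusted p below 0.05 there were 101 introns. All 8 were higher in the NesKO than in wild-type brain by junction reads at E18 and lower in the EmxKO than in the library labelled wild type at P1, where the differences were small in most. *Rbm5* had a junction-read ratio of 86.9% in the EmxKO and 95.2% in the library labelled wild type, 8.4 points lower (adjusted p = 0.0081, Fisher's exact test). In *Clk1* the P1 libraries had 75.9% and 93.8%, 17.9 points lower, with 61 and 30 spliced reads. The deposited ratio of *Clk1* at P1 was 50.1% and 47.6% and went the other way. *Ano8*, an anoctamin, had an intron of 703 nt at 50% and 38.4% by junction reads at E18 and at 21.8% and 28.7% at P1.

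*Sin3b* was at 47.4% and 26.7% by junction reads at E18 and at 52.6% and 56.7% at P1. *Maged1*, a member of the MAGE family, had 492 and 487 boundary reads with 3884 spliced reads in the NesKO and 334 and 296 with 3802 in wild-type brain, a junction-read ratio of 11.2% against 7.7%. At P1 it was 4.8% against 6.4%. *Rpl10a*, a protein of the large ribosomal subunit, had 8.2% and 5.5% at E18 and 4.3% and 5.2% at P1. The intron of 1243 nt in the 3′ UTR of *Wsb1*, a ubiquitin ligase subunit, was at 96.7% and 86.5% by junction reads at E18 and at 94.5% and 97.2% at P1. Its deposited ratios were at other levels, 34.3% and 32.0% at E18 and 76.0% and 86.8% at P1, with the same direction of both differences. *Retreg2*, an endoplasmic reticulum protein, had 86.2% and 77.9% by junction reads at E18 and 89.6% and 90% at P1. For *Fam161b*, with junction-read differences of 50.7 points at E18 and 29.3 at P1, the difference between the stages did not pass this chi-square test (adjusted p = 1).

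**Figure D4:**
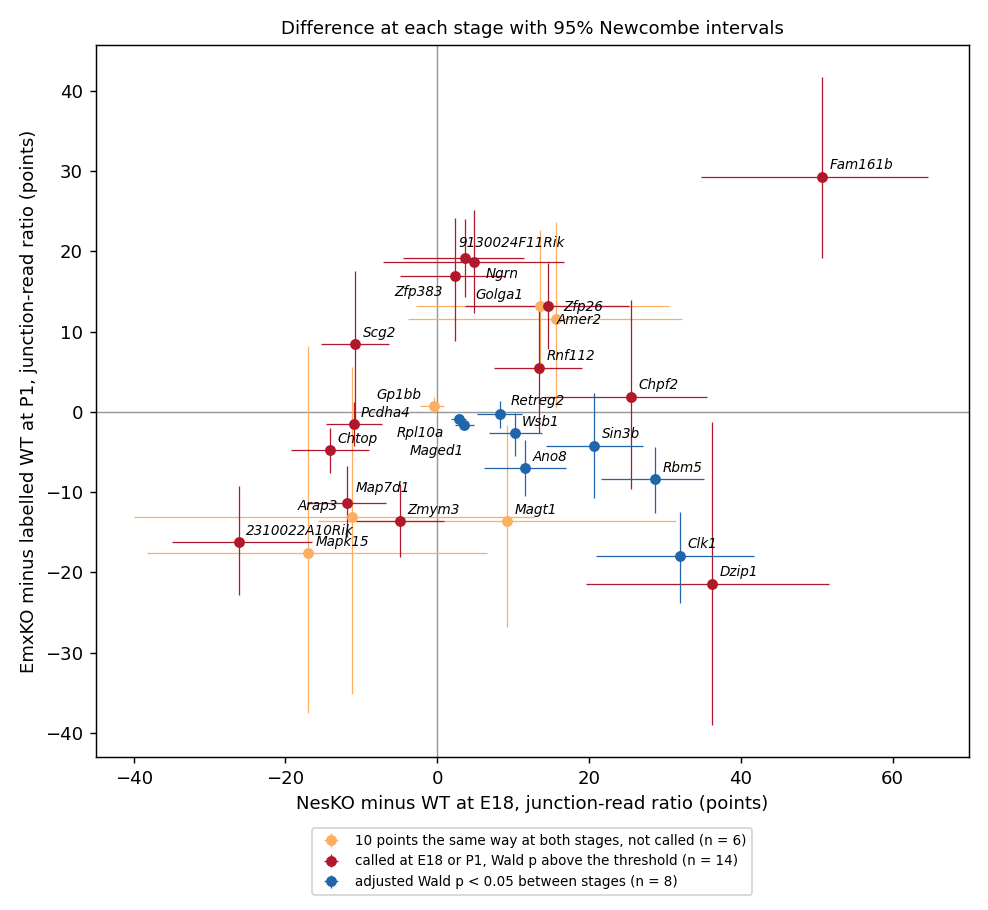
Difference in junction-read ratio between the knockout and the library labelled wild type in points, at P1 (vertical) against E18 (horizontal), for named introns. Bars are 95% Newcombe intervals for counting error. The 8 blue introns differ between the stages by the Wald test and lie to the right of 0 at E18 and below 0 at P1, while *Fam161b* lies at 50.7 and 29.3 points.

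Genes of splicing factors and other RNA-binding proteins hosted 34 of the introns, in 25 genes. Of the 33 tested at E18, 3 were higher by 10 points or more (9.09%, against 11.4% of all introns), none was lower, and *Rbm5* and *Clk1* passed Fisher's exact test. At P1, 2 of 34 were higher by 10 points, and none passed both criteria. *Clk1* and *Rbm5* had adjusted p of 1.5e-08 and 0.0081 from Fisher's exact test at P1. By junction reads both were lower in the EmxKO, by 17.9 and 8.4 points, with deposited differences of 2.5 and -7.6 points. The median difference was 0.0 points at both stages. Below 10 points, *Sf3b1*, a core subunit of the spliceosome, was higher in the EmxKO by 5.5 points (21.4% and 15.9%, adjusted p = 0.014 by Fisher's exact test), and *Hnrnpdl*, a nuclear ribonucleoprotein, by 6.9 points in a 3′ UTR intron of 1119 nt (37.0% and 30.1%, adjusted p = 8.4e-08). *Celf3*, a neuronal CELF protein, was lower by 2.8 points (7.4% and 10.2%, adjusted p = 0.04 by the same exact test).

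Chromatin and transcription genes hosted 35 introns. Of the 34 tested at E18, 7 were higher by 10 points or more and none lower (20.6%, against 11.4% of all introns), with *Sin3b* passing Fisher's exact test and a median difference of 0.60 points. At P1, 2 of 32 were higher and *Zfp383* passed. Channel, receptor and transporter genes had 3 of 33 higher at E18 and none of 33 past 10 points at P1. Synapse and vesicle genes had none of 10 at E18 and 1 of 9, lower, at P1. Translation genes had none of 16 at E18 and 1 of 16 at P1, and their introns were mostly removed, with a median ratio of 6.8% and 6.4% at E18 and of 4.1% and 4.4% at P1. Cytoskeleton and transport genes had 1 of 23 higher and 1 lower at E18 and none of 21 at P1. Outside the lists of splicing factors and of chromatin and transcription, *Ngrn* was the only listed intron that passed both criteria, and genes of mitochondrial energy metabolism hosted none of the introns. The lists were made by the start of gene symbols and also caught *Trps1* among channels, *Dnmt3a* among synapse genes, and *Map2k7*, *Map4k2*, *Ankle1*, *Ankrd13b* and *Ankrd24* among cytoskeleton genes. They missed *Scg2*, *Map7d1* and *Chtop*, which passed both criteria at E18 and are in no list, so that the counts for synapse and vesicle, cytoskeleton and splicing factor genes leave them out. Of the introns in no list, 11.5% differed by 10 points at E18 and 6.99% at P1.

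A few genes had several introns, which share reads. *Tardbp*, which encodes the RNA-binding protein TDP-43, had 6, of which 4, between 941 and 1029 nt long, overlap each other. All 6 were at 96.5% or more in every library. The intron of 721 nt had the most spliced reads, 238 in the P1 library labelled wild type beside 2040 and 386 boundary reads. *Smox*, spermine oxidase, had an intron of 143 nt between 12.3% and 17.1% and 3 others between 97.4% and 99.9%. *Skiv2l*, an RNA helicase that works with the exosome, had 4 introns between 12.2% and 37.6%. Its intron of 67 nt was at 37.6% and 35.5% at E18 and at 12.2% and 13.7% at P1. *Tgfb1i1*, a focal adhesion protein, had 4 introns. Its intron of 166 nt was at 11.9% and 16.5% at E18 and at 2.7% and 1.1% at P1. In none of these genes did an intron differ by 10 points within a stage in the deposited ratio. By junction reads the *Skiv2l* intron of 348 nt was 12.3 points higher in the NesKO at E18 (5.6 to 18.8, adjusted p = 0.12, Fisher's exact test). Over all tested introns, 206 overlapped another tested intron. Of the features tested at both stages, 53 had a ratio of 99.9% and no spliced read in all 4 libraries. Of these, 25 matched an annotated intron of 50 nt or more, such as the 120 nt in *Srebf2*, a transcription factor of cholesterol synthesis, and 23 matched a stretch of 1 continuous exon, such as those of *Maged2* and the 92 nt of *Tardbp*. The intron nearest the median, 269 nt in *Zfp940*, was at 32.5%, 41.7%, 37.1% and 39.9%.

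Sequence was compared over 551 introns of at least 100 nt that were tested at both stages and are kept as exon in a GENCODE transcript. Introns under 20% in wild-type E18 brain had a median length of 459 nt and a median GC content of 49.0%, and those at 80% or more had 294 nt and 54.5%. The share that begins with GT and ends with AG was 95.6% and 90.1%. C and T made up a median of 60% and 58.0% of the last 50 bases. In the last 100 bases on the transcribed strand, TCTT was found in 61.0% of the introns under 20% and in 51.7% of those at 80% or more, against 58.1% of all 551. TTCT was found in 63.2% and 51.0% (57.7% of all), CTCTCT in 14.3% and 8.61% (12.2%) and TTCTCT in 13.7% and 9.27% (12.9%). TTCT and TTCTCT overlap each other, as do TCTT and TTCT. *Fam161b* had CTCTCT and 64.0% C and T in the last 50 bases. *Rbm5*, *Clk1* and *Ngrn* had TCTT and TTCT, with 56.0%, 68.0% and 70% C and T, and 2310022A10Rik had all 4 motifs and 82.0%. Other introns that passed both criteria at E18 had fewer motifs or a lower share. *Chtop* had none of the 4 motifs and 58.0% C and T, and *Dzip1* had only TTCT. *Scg2* had TCTT and TTCT with 58.0%. No common motif is therefore read from these introns. A match is a description of these letters and not of binding.

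Reads of the unstranded E18 libraries cannot be assigned to a strand, so reads of a gene on the other strand can be counted on an intron. Of the 1105 introns with a host gene, 99 overlapped an annotated gene on the other strand. Their median ratio was 42.9% and 40.6% at E18, against 42.0% and 39.5% for introns without such a gene, and 34.4% and 36.9% against 30.1% and 30.5% at P1. At E18, 6.49% of the introns with a gene on the other strand differed by 10 points, against 12% of those without. All 12 introns that passed both criteria at E18 lay outside such genes.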

How the data were processed

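The authors ran SpliceTrap, which maps paired reads to annotated groups of neighboring exons, and deposited a table for each library. The deposited inclusion ratio is a fraction from 0 to 1, used here in percent after SpliceTrap's own correction. The deposited junction reads are raw counts, whole reads without normalization. The deposited coverage is a signal, reads on an exon over its length, which includes junction reads and was used for read densities. The submitters' notes name CASAVA, TopHat, Cufflinks and mm9, and give no version. How duplicates were treated is not given in the sources used here.

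Fisher's exact test (two-sided) compared the rounded mean of the 2 boundary counts and the spliced reads of 2 libraries, and the Wald test added 0.5 to each count. Both were adjusted by Benjamini-Hochberg over all features tested. The minimum was 20 junction reads, the cutoff 10 points and the threshold of the adjusted p 0.05. Hosts were matched by lengths of exons and introns to GENCODE mouse release M21, which named 1105 of 1184 introns in 891 genes, and 999 matched as an annotated intron. The introns named are, for each stage, those past 10 points in both ratios with an adjusted p below 0.05 (up to 10 in each direction), those past these limits at both stages, all of the PTB-retained list, the largest of each host gene list, the 5 most retained, the one nearest the median and the genes with the most introns. Others were added after their values were seen: those that differed between the stages, those past 10 points at both stages without the test, those of *Sf3b1*, *Hnrnpdl* and *Celf3*, and the short features. The introns and lists were chosen with earlier results of these data known. Reads were simulated for 127080 features, with 200 introns moved by 40 points in the NesKO only. Fisher's exact test with 10 points in the junction-read ratio recovered 180 (90%) at E18 and the Wald test 110 (55%), with 0 false calls. The simulated reads had counting error only, so the false calls leave out variation between animals or libraries. The shift of 40 points was larger than most differences called here. Python 3.11.15, numpy 2.4.6, pandas 2.3.3, scipy 1.17.1 and matplotlib 3.10.9 were used.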

Additional observations from a re-analysis of the deposited data

Results flagged for a closer look

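The difference between knockout and wild-type library was not the same at E18 and P1 for 8 introns by the Wald chi-square test on log odds ratios of the reads, adjusted by Benjamini-Hochberg over all features tested at both stages. The junction-read difference in *Clk1* was 32.0 points at E18 and -17.9 at P1 (chi-square, adjusted p = 5.24e-13), and in *Rbm5* 28.7 and -8.4 points (chi-square, adjusted p = 1.32e-10). *Maged1* had 3.5 and -1.6 points (chi-square, adjusted p = 1.20e-08), *Rpl10a* 2.8 and -0.9 points (chi-square, adjusted p = 1.83e-06) and *Ano8* 11.6 and -7.0 points (chi-square, adjusted p = 5.05e-05). *Sin3b* had 20.7 and -4.2 points (chi-square, adjusted p = 1.78e-04), *Wsb1* 10.2 and -2.7 points (chi-square, adjusted p = 0.00122) and *Retreg2* 8.3 and -0.3 points (chi-square, adjusted p = 0.0267). Each value compares 1 library with 1 library, and the P1 differences are from a library labelled wild type with 31.54% skipping of *Ptbp2* exon 4. Stage, tissue, Cre line and library protocol cannot be told apart.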

How the results depend on the processing

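Each group has 1 library, and the counts below moved with the measure and the limits chosen. Introns that differed by 10 points or more numbered 96 at E18, 56 at P1 and 7 at both stages in the same direction. With at least 1 junction read they numbered 163, 107 and 10, and with at least 50 they numbered 63, 37 and 4. At 20 points they numbered 19, 7 and 1, with an adjusted p below 0.05 from Fisher's exact test 12, 6 and 1, and with 10 points in both ratios 58, 37 and 5. By junction reads alone there were 97, 68 and 11. Read density on the intron, an alternative chosen after seeing the data and on a scale without an upper end, gave 282, 183 and 50. The split by direction at E18 was 57 higher and 39 lower, and 128 higher and 154 lower by read density. The median difference moved from 0.20 to 0.80 points at E18 and from 0.00 to -0.10 at P1 over introns with a spliced read in both libraries, and to -0.20 at P1 by read density. The causes of these shifts were not tested, apart from the fewer or more introns that each limit admits. The ratio before the correction, the choice of trio, even boundary counts, introns without a gene on the other strand, introns of at least 50 nt and annotated introns kept each count within 1.5 times. Even boundary counts, meaning within 4-fold of each other, left out *Dzip1* at E18 and *Zmym3* at P1. The 18 calls by 10 points and Fisher's exact test kept their direction in the junction-read ratio, the ratio before the correction and the read density. In read density, 17 of 18 kept 10 points. The junction-read ratio is no separate check, because the introns were also chosen by it and Fisher's exact test used the same reads. The ratio before the correction was nearly the same value, 43.6 against 43.7 points in *Fam161b* at E18. Read density includes the boundary reads. The 8 introns that differed between the stages remained among the 8, 8 and 11 found with at least 50 junction reads, with at least 1, and with the smaller boundary count. No paired analysis was possible because each group has 1 library.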
